A study of Homo sapiens with 15 samples.

Results

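miR-1246 (hsa-miR-1246) is 1 of 1619 mature miRNA entries counted by small RNA sequencing of DiFi, a human cell line established from a colorectal cancer. The entry was picked by its name, because its sequence lies within the spliceosomal U2 RNA and because supermeres have been described as rich in it, and it was read in all 14 library columns. The libraries fall into 6 groups of 2, each with 1 library labelled HF6 and 1 labelled HF7. They are filtered HDM, unfiltered HDM, cell pellets, plate 1 cells, plate 2 cells and plate 3 cells. HDM media and regular media had 1 library each. HDM medium without cells is also in the labels but was not analysed here, so no cell-free background can be given. All samples carry the same cell line label, and the labels name no genotype or treatment beyond these sample names. The extraction protocol in the labels speaks of extracellular samples for every library, the cell libraries included. The labels do not spell out HF or HDM, do not say whether the media libraries come from cells or from medium, and do not say whether HF6 and HF7 are separate cultures, so p-values measure the spread between these libraries only. No library is labelled as a purified supermere fraction.

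A miRNA is a short RNA that guides an Argonaute protein to messenger RNAs through its seed, near the 5′ end. miR-1246 is annotated as such a miRNA and has been described as a p53-responsive one that lowers DYRK1A, but its sequence also occurs inside U2, the spliceosomal RNA that pairs with the branch point of introns. Work in other cells has described miR-1246 in exosomes as a fragment of U2 made without the usual miRNA hairpin pathway. Supermeres are extracellular nanoparticles, smaller than exosomes, that are collected from medium by prolonged ultracentrifugation.

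The sequences below show why a read counted as miR-1246 need not come from the MIR1246 gene. The mature sequences and the hairpin are from RefSeq (GRCh38.p14), and the U2 stretch is from the RNU2-1 transcript of GENCODE release 29 (GRCh38). Capitals mark the seed (bases 2 to 8) in the mature sequences. In the hairpin and in the U2 stretch they mark the 19 bases of mature miR-1246.
miR-1246: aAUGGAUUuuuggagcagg
MIR1246 hairpin: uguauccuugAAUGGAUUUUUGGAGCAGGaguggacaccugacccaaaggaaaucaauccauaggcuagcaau
RNU2-1, bases 82 to 124: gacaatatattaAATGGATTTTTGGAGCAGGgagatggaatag
miR-1290: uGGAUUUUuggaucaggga

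The deposited table places miR-1246 on chromosome 2, 176601024 to 176601042, minus strand (GRCh38), within the MIR1246 gene at 176600980 to 176601052, where no other GENCODE gene overlaps it. RNU2-1 lies on chromosome 17, 43233787 to 43233977, minus strand. All 19 bases of the mature sequence occur unbroken at bases 94 to 112 of the 191-base RNU2-1 transcript, and 19 bases is also the longest run that the 73-base hairpin and RNU2-1 share. Of 206694 GENCODE transcripts, 20 hold the 19 bases exactly, namely MIR1246 itself and 19 transcripts annotated as small nuclear RNA. Of those 19, 7 carry an RNU2 name and 12 are named RF00004, the family code of U2, and all 12 lie on chromosome 17 beside RNU2-1. The table lists 1 location for miR-1246 and gives whole counts for it in every library. It gives no read lengths or flanking bases, so reads from the hairpin and from U2 cannot be told apart here.

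Such an overlap was rare in the table among the RNA classes searched, which held no transfer RNA other than mitochondrial. The sequence of 15 of the 1619 entries (0.926%) was found unbroken in a GENCODE transcript of another small or ribosomal RNA class, and miR-1246 was the 1 entry with a match in a small nuclear RNA. No other mature miRNA among 2370 RefSeq names, and no other entry of the table, shares the miR-1246 seed. miR-1290, often reported together with miR-1246, shares a run of 12 bases with it and differs from RNU2-1 by 1 base over its own length. It had 15 counts over all 14 libraries and at most 7 in any of them, too few to test, against 121 or more counts of miR-1246 in every library.

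The level of miR-1246 followed the kind of sample in steps. Levels are given here as CPM, counts per 1000000 counts of the library, and the fits below use TMM-normalised counts, a scaling that adjusts for the make-up of each library. Filtered HDM held 558 CPM (HF7) and 721 CPM (HF6), and unfiltered HDM held 588 CPM (HF7) and 634 CPM (HF6). Cell pellets held 6956 CPM (HF7) and 2544 CPM (HF6). Plate 1 cells held 2484 CPM (HF7) and 1312 CPM (HF6).
The pellets were thus the highest libraries, but the HF6 pellet lay close to HF7 plate 1 cells. Their exact 95% binomial intervals overlapped, at 2494 to 2595 CPM and 2425 to 2545 CPM. Both plate 1 libraries lay above every HDM library. How many other miRNAs are separated in these ways was not counted. Plate 2 cells held 244 CPM (HF7) and 192.1 CPM (HF6). Plate 3 cells held 361 CPM (HF7) and 198.96 CPM (HF6). HDM media held 236 CPM and regular media 168 CPM, where HDM media lay within and regular media below the range of plate 2 and 3 cells. Every HDM library lay above every plate 2 and plate 3 library.

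**Figure D1:**
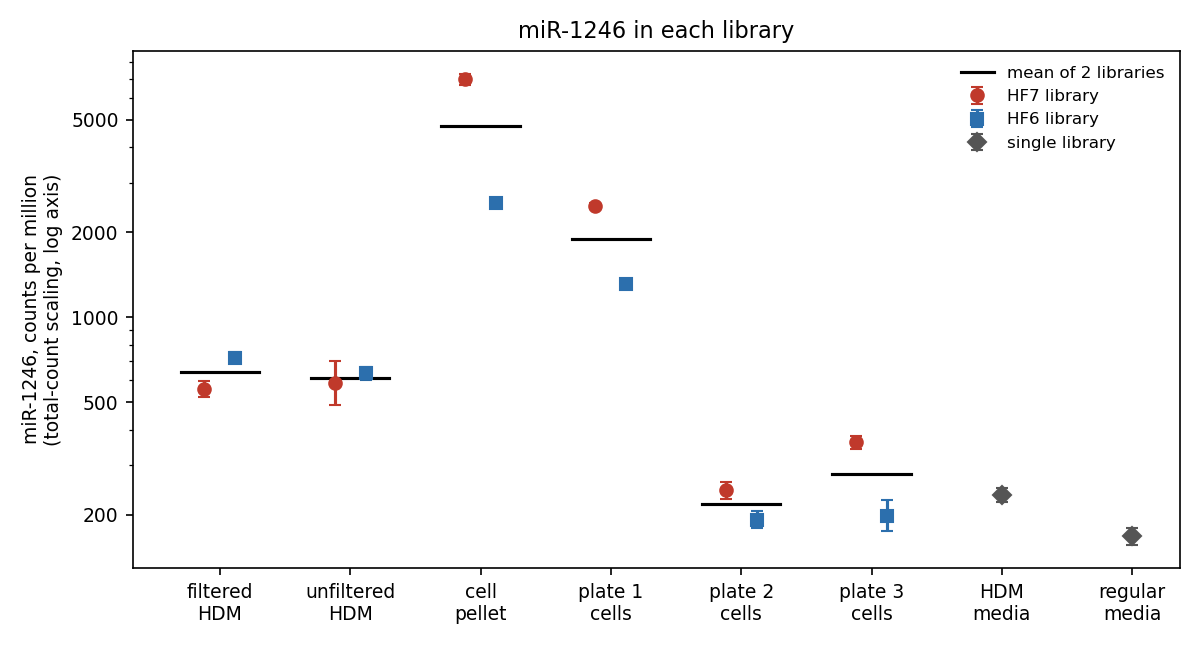
miR-1246 in each of 14 libraries, in CPM on the total count (log axis); points are libraries, error bars are exact 95% binomial intervals, and the horizontal lines are means of 2 libraries. The pellets sit at 2544 and 6956 CPM, plate 1 cells at 1312 and 2484 CPM, the 4 HDM libraries between 558 and 721 CPM, and plate 2 and 3 cells and the media libraries between 168 and 361 CPM.

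These values rested on 121 to 9744 counts of miR-1246 in libraries of 205738 to 4896917 counts. The thinnest was unfiltered HDM of HF7, with 121 counts and an exact 95% binomial interval of 488 to 703 CPM. The HF7 pellet had 2180 counts in a library of 313380, with an interval of 6668 to 7254 CPM. These intervals cover counting error only and are narrow beside the distance between the pellets. By abundance miR-1246 ranked 32 (HF7) and 57 (HF6) in the pellets, 58 (HF7) and 71 (HF6) in plate 1 cells, and 92 to 104 in HDM. No plate 2 or plate 3 library placed it higher than rank 120, and it ranked 147 in HDM media and 157 in regular media. Set against miR-21-5p, the most abundant entry, miR-1246 had 3.49 to 5.50 counts per 1000 in HDM. It had 36.1 (HF7) and 20.1 (HF6) per 1000 in the pellets, 12.9 (HF7) and 7.60 (HF6) in plate 1 cells, and 1.22 to 2.80 in plate 2 and 3 cells.

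miR-1246 fell in HDM relative to cell pellets. Unfiltered HDM averaged 512 ± 91.7 TMM-normalised CPM and cell pellets 5588 ± 2892 (SD, n = 2 each), a log2 fold change of -3.43 ± 0.41 (standard error), 10.8-fold lower. Filtered HDM averaged 590 ± 79.9 against 5588 ± 2892, a log2 fold change of -3.24 ± 0.41, 9.45-fold lower. The adjusted p was 2.41e-05 for unfiltered and 2.22e-05 for filtered HDM (edgeR quasi-likelihood test, Benjamini-Hochberg over 534 miRNAs). Differences between sample kinds were common, since 30.9% of miRNAs were called in the unfiltered and 39.1% in the filtered comparison. Lower calls made up 16.5% and higher calls 14.4% of miRNAs in the unfiltered comparison, and 21.0% and 18.2% in the filtered one. The log2 difference between unfiltered HDM and the pellet was -4.09 within HF7 and -2.62 within HF6 (TMM-normalised CPM).
The 2 comparisons share their pellets. Without the HF7 pellet, the library of 313380 counts, the log2 fold changes were smaller, at -2.65 ± 0.30 for unfiltered and -2.40 ± 0.30 for filtered HDM (edgeR adjusted p = 3.61e-07 and 7.19e-07). Where plates were grouped by HF number, so that plates 1 to 3 counted as replicates, the folds stood at -3.44 and -3.24 but were not called, with edgeR adjusted p of 0.0706 for unfiltered and 0.0651 for filtered HDM. All folds are relative to the other miRNAs of a library, and a change in that total cannot be told apart from one in miR-1246. In bulk samples, fewer cells that hold miR-1246 and less of it per cell cannot be told apart either.

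Against plate cells HDM stood between the plates. Relative to plate 1 cells miR-1246 fell in HDM, with the 4 HDM libraries at 448 to 646 TMM-normalised CPM and plate 1 cells at 1477 and 2722. The log2 fold change was -1.93 ± 0.31 (edgeR adjusted p = 0.000255), in a comparison where 28.7% of miRNAs were called. Relative to plate 2 and 3 cells miR-1246 rose in HDM, with the 4 HDM libraries averaging 551 ± 83.2 and the 4 plate libraries 242 ± 72.9 TMM-normalised CPM (SD). That log2 fold change was 1.20 ± 0.27, 2.30-fold (edgeR adjusted p = 0.00425), with 23.6% of miRNAs called. The smallest such ratio within an HF number was in HF7, where, in TMM-normalised CPM, unfiltered HDM stood 1.29-fold above plate 3 cells. Whether miR-1246 was higher or lower in HDM thus depended on the cells it was set against.
Over all 4 HDM and 8 cell libraries the difference in mean log2(TMM-normalised CPM + 1) was -0.67, with p = 0.547 in an exact two-sided permutation test over 495 splits. In CPM on the total count it was -0.39 (exact permutation p = 0.705). Without the pellets the TMM-normalised difference was 0.19 (exact permutation p = 0.838). The permutation test treats all libraries as exchangeable, though they come in groups of 2. The 8 cell libraries mix sample kinds that spanned 184 to 7633 TMM-normalised CPM. A high p here is thus no sign that miR-1246 is alike in HDM and in any 1 kind of cells.

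Filtration had no called effect on miR-1246. Filtered HDM averaged 590 ± 79.9 and unfiltered HDM 512 ± 91.7 TMM-normalised CPM (SD, n = 2 each), a log2 fold change of 0.19 ± 0.38 with a 95% interval from -0.61 to 0.998 (edgeR adjusted p = 0.978). The interval leaves room for a change of either sign. In this comparison 0.562% of miRNAs were called.

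Among the cell samples miR-1246 rose in plate 1 cells relative to plates 2 and 3. Plate 1 cells averaged 2099 ± 880 TMM-normalised CPM (n = 2) and plate 2 and 3 cells 242 ± 72.9 (n = 4), a log2 fold change of 3.13 ± 0.31, 8.73-fold. The edgeR adjusted p was 6.94e-06, with 26.0% of miRNAs called. By size this was place 9 of 534 absolute fold changes in that comparison. Within HF7 plate 1 cells stood 11.6-fold above plate 2 cells and 7.85-fold above plate 3 cells, and within HF6 8.01-fold and 7.34-fold. The step was thus seen in each of 4 such pairs, which share 2 plate 1 libraries and so are not independent. The labels do not say how the plates differ.
Cell pellets stood 23.2-fold above plate 2 and 3 cells, a log2 fold change of 4.54 ± 0.33 (edgeR adjusted p = 8.42e-08), where 41.0% of miRNAs were called, 20.2% higher and 20.8% lower. Without the HF7 pellet the log2 fold change was 3.75 ± 0.24 (edgeR adjusted p = 2.21e-11).

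Pellets and plate 1 cells were closer. Cell pellets averaged 5588 ± 2892 and plate 1 cells 2099 ± 880 TMM-normalised CPM (SD, n = 2 each). The log2 fold change was 1.41 ± 0.38, 2.66-fold, at an edgeR adjusted p of 0.0450, with 5.62% of miRNAs called, 1.87% higher and 3.75% lower. Within HF7 the pellet was 2.80-fold and within HF6 2.40-fold above plate 1. This call was marginal: it was lost in 11 of 12 fits that left out 1 library, with adjusted p up to 0.306 without the HF6 plate 1 library. Without the HF7 pellet the log2 fold change was 0.73, with an edgeR adjusted p of 0.0997.

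Plate 3 and plate 2 cells did not differ beyond their spread. Plate 3 cells averaged 274 ± 103 and plate 2 cells 210 ± 36.0 TMM-normalised CPM (SD, n = 2 each), a log2 fold change of 0.39 ± 0.38 with a 95% interval from -0.41 to 1.19 (edgeR adjusted p = 0.968; 0.187% of miRNAs called). The order of the levels was therefore cell pellets, plate 1 cells, filtered and unfiltered HDM, plate 3 cells and plate 2 cells. The neighbours filtered and unfiltered HDM, and plate 3 and plate 2 cells, were not separated by a call. HDM was not compared with plate 3 cells alone, and the call between pellets and plate 1 cells was marginal.

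**Figure D2:**
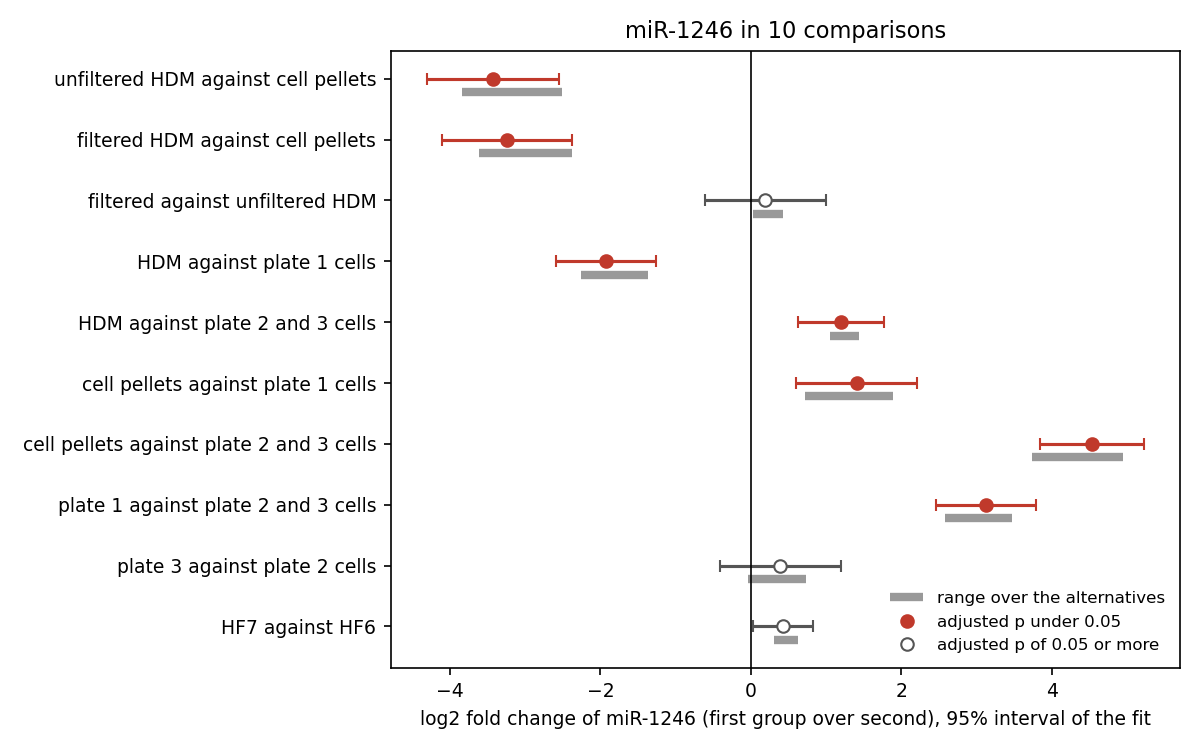
Log2 fold change of miR-1246 in 10 comparisons, first-named group over second, with the 95% interval of the edgeR fit; filled points have an adjusted p under 0.05 and grey bars span the values under the alternative settings and left-out libraries. HDM lies at -3.43 and -3.24 against pellets, at -1.93 against plate 1 cells and at 1.20 against plate 2 and 3 cells.

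HF7 libraries held more miR-1246 than HF6 libraries in all 4 cell groups and less in both HDM groups. In CPM on the total count the HF7 value was 2.73 times the HF6 value in pellets, 1.89 times in plate 1, 1.27 times in plate 2 and 1.81 times in plate 3 cells. It was 0.773 times the HF6 value in filtered and 0.928 times in unfiltered HDM. For unfiltered HDM the exact 95% binomial intervals overlapped, at 488 to 703 CPM (HF7) and 601 to 667 CPM (HF6). The same directions held in TMM-normalised CPM. Over all 6 groups the log2 fold change of HF7 over HF6 was 0.43 ± 0.19, with an unadjusted p of 0.0398 and an edgeR adjusted p of 0.605. In that comparison edgeR called 0% of miRNAs, 40 of 534 had an unadjusted p under 0.05, and DESeq2 called 1.

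**Figure D3:**
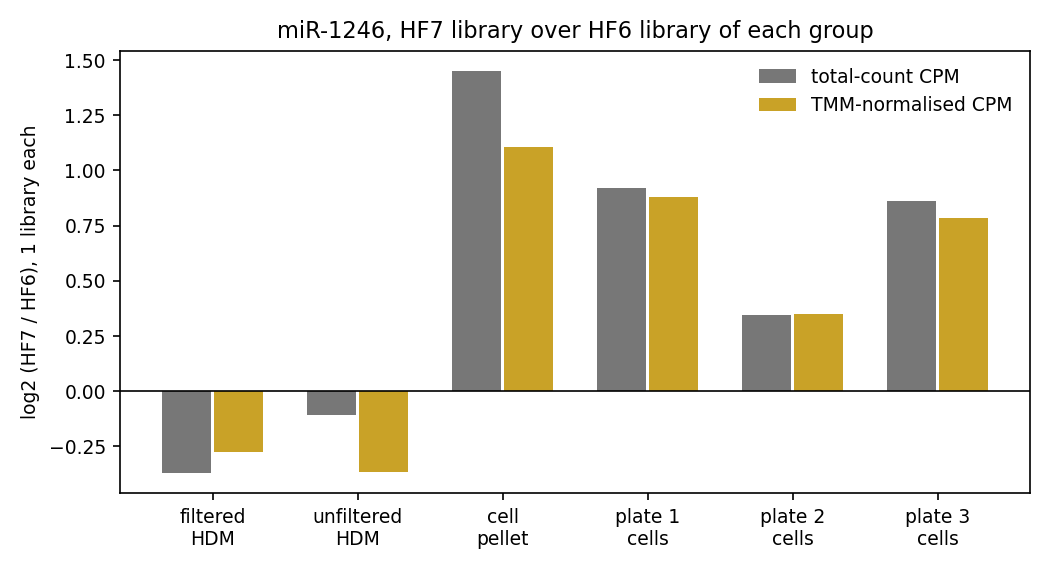
Log2 ratio of miR-1246 in the HF7 library over the HF6 library of each group, 1 library each, on 2 scalings (bars start at 0). On the total count the ratio is 1.45 in pellets, 0.92 in plate 1, 0.35 in plate 2 and 0.86 in plate 3 cells, and -0.37 in filtered and -0.11 in unfiltered HDM.

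Likeness to miR-1246 was measured as the Pearson correlation of log2(TMM-normalised CPM + 1) over the 14 libraries. It was computed for the 284 other tested miRNAs that averaged 20 TMM-normalised CPM or more. The most like were miR-182-5p (r = 0.934), miR-146b-5p (0.932), miR-183-5p (0.920), miR-152-3p (0.910) and miR-320d (0.900), where the median over the 284 was -0.113. miR-182-5p and miR-183-5p come from 1 cluster on chromosome 7. miR-320d closely resembles other miR-320 entries, so its counts are uncertain. miR-146b-5p and miR-152-3p also had fractional counts in several libraries, and miR-182-5p and miR-183-5p had them in regular media. These correlations describe 14 libraries that share groups and cell line, and carry no test.
The like miRNAs moved less than miR-1246. In CPM on the total count, miR-182-5p averaged 5247 in filtered HDM, 6099.6 in unfiltered HDM, 10849 in pellets, 6865 in plate 1, 4042 in plate 2 and 4371 in plate 3 cells. It was called lower in filtered HDM than in pellets, at -1.45 ± 0.20 on the log2 scale (edgeR adjusted p = 4.48e-05). The 5 were chosen for following miR-1246 over these same libraries, so their folds and calls are no separate support. miR-146b-5p averaged 200.5 CPM in filtered and 203 in unfiltered HDM, 353 in pellets, 272 in plate 1, 98.8 in plate 2 and 137 in plate 3 cells. Of the 5, miR-146b-5p, miR-152-3p and miR-320d were also called higher in HDM than in plate 2 and 3 cells, at log2 folds of 0.68, 0.99 and 1.15. Over all 534 miRNAs, 11.8% were called higher in that comparison.
The least like were miR-23b-5p (r = -0.932), miR-423-3p (-0.926) and miR-3615 (-0.924). miR-23b-5p, the minor arm of its hairpin, averaged 39.2 CPM in filtered HDM, 48.9 in unfiltered HDM and 0.261 in pellets, where it had 0 and 2 counts. It averaged 4.61 CPM in plate 1 cells, 36.1 CPM in plate 2 cells and 36.2 CPM in plate 3 cells.

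**Figure D4:**
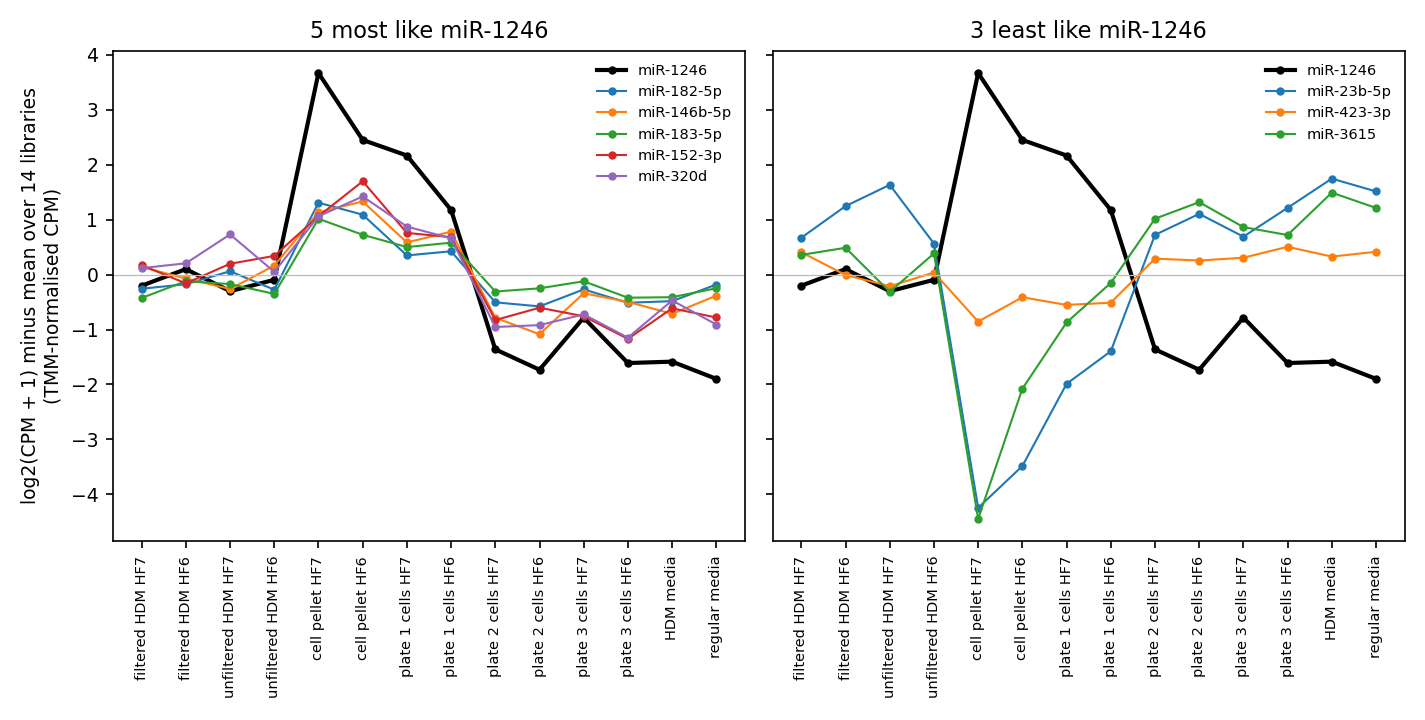
Log2(CPM + 1) of miR-1246 and of the 5 most like and 3 least like miRNAs in 14 libraries, each minus its own mean (TMM-normalised CPM, lines join libraries of 1 miRNA). miR-1246 and each miRNA in the left panel reach their highest value in a pellet library, while those in the right panel have their lowest value in the HF7 pellet.

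Other entries that overlap or resemble structured RNAs moved in both directions. Of 32 listed entries, 17 are in the table and 13 were tested. In unfiltered HDM against pellets 5 of the 13 were higher and 3 lower, where 14.4% of all 534 miRNAs were higher and 16.5% lower. Their median log2 fold change was 0.39, against 0.06 over all 534. In pellets against plate 2 and 3 cells 4 were higher and 7 lower, where 20.2% of all 534 were higher and 20.8% lower, and the median was -1.63, against -0.09 over all 534. The entries with an unbroken match in another RNA class, a list drawn up from the table itself, gave other counts. Of the 11 tested besides miR-1246, 0 were higher and 4 lower in unfiltered HDM than in pellets, again beside 14.4% higher and 16.5% lower over all 534. Their median was -1.20, against 0.06 over all 534. In pellets against plate 2 and 3 cells 5 of the 11 were higher and 3 lower, again beside 20.2% and 20.8%. The median there was 1.27, against -0.09 over all 534.
miR-12136, which matches a mitochondrial transfer RNA, was also lower in filtered HDM than in pellets, at -4.02 ± 0.60 (edgeR adjusted p = 0.000105). Unlike miR-1246 it was lower in the HF7 pellet, at 5090 CPM, than in the HF6 pellet, at 28842 CPM. miR-4485-3p, which matches mitochondrial ribosomal RNA, was not called in filtered HDM against pellets (0.27 ± 0.43) and was lower in pellets than in plate 2 and 3 cells (-1.94 ± 0.40). miR-1248, which matches a snoRNA, held 1074 CPM (HF7) and 1042 CPM (HF6) in filtered HDM against 25.5 CPM (HF7, 8 counts) and 269 CPM (HF6) in pellets, a log2 fold change of 2.14 ± 0.64 (edgeR adjusted p = 0.0163). It was not called in unfiltered HDM against pellets, at 1.54 ± 0.64 (edgeR adjusted p = 0.0778). miR-1260a and miR-1260b, which resemble transfer RNA and hardly differ from each other, were also called higher in filtered HDM than in pellets, at 1.84 ± 0.40 and 1.89 ± 0.45.

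miR-1247-5p, an entry also described in supermeres, was higher in HDM than in pellets, where miR-1246 was lower. It held 273 CPM (HF7) and 264 CPM (HF6) in filtered HDM and 219 CPM (HF7) and 334 CPM (HF6) in unfiltered HDM, against 12.8 CPM (HF7) and 6.79 CPM (HF6) in pellets, where it had 4 and 26 counts. Its log2 fold change in filtered HDM against pellets was 4.60 ± 0.39 (edgeR adjusted p = 7.89e-07). Against plate 2 and 3 cells both entries were called higher in HDM, miR-1246 at 1.20 ± 0.27 and miR-1247-5p at 2.90 ± 0.21. HDM media held 360 CPM of miR-1247-5p and regular media 146 CPM.
miR-210-3p, the hypoxia-responsive miRNA, was lower in filtered HDM than in pellets at -4.13 ± 0.39, as miR-1246 was. Like miR-1246, it was also higher in plate 1 than in plate 2 and 3 cells, at 2.08 ± 0.29. Unlike miR-1246, it was not called in HDM against plate 2 and 3 cells, at -0.49 ± 0.25 (edgeR adjusted p = 0.177). In plate 3 against plate 2 cells miR-210-3p stood at 1.52 ± 0.35 and miR-1246 at 0.39 ± 0.38, neither called.

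Epithelial miRNAs of the miR-200 and miR-192 groups together held 199555 to 254103 CPM over the 14 libraries, and all 6 listed were present. The 4 leukocyte markers together held 1379 to 4104 CPM, erythroid markers at most 8.88 CPM, the 2 of 4 stromal markers in the table at most 3.003 CPM and miR-122-5p of liver at most 0.831 CPM. miR-126-3p, the endothelial marker, was also highest in pellets and plate 1 cells, but lower in HDM than in plate 2 and 3 cells. It held 12.9 to 29.7 CPM in HDM, 78.3 and 128 CPM in pellets, 75.3 and 93.8 CPM in plate 1 cells and 32.9 to 62.4 CPM in plate 2 and 3 cells. The media libraries held 11.6 and 22.1 CPM of it. Its part in the result was not tested.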

How the data were processed

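The authors deposited 1 table of expected counts per mature miRNA entry, not normalised, with some fractional values, whose rule is not given in the sources used here. The submitters' processing notes name cutadapt 2.10, Bowtie 1.3.1, FastQC and GRCh38. Per the labels' protocols, RNA was purified with a miRNeasy kit and libraries were made with a NEXTflex small RNA kit. The members and lists were chosen with earlier results of these data known.

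Counts were rounded to whole numbers. The 12 libraries of 6 groups of 2 were fitted together in edgeR 4.0.16 (R 4.3.3) with 1 coefficient per group, TMM factors and filterByExpr, leaving 534 miRNAs that hold 99.96% of all counts. Residual degrees of freedom number 6, and the biological coefficient of variation is 0.217 in common and 0.276 for miR-1246. P-values were adjusted over the 534 miRNAs within each of 10 comparisons, not over comparisons, at a threshold of 0.05. Plate number defines the groups and HF number the replicate. This grouping differs from that of an earlier analysis, which grouped plates by HF number, and was chosen with its results known. Contrasts over several groups average their log2 levels. HF7 against HF6 was taken from a fit with group and HF number. Named miRNAs are miR-1246, the 5 listed entries with the highest mean CPM, miR-1290, the 5 most and 3 least like miRNAs, miR-21-5p, miR-1247-5p and miR-210-3p. Replicate libraries are not copies of each other, with a chi-square per degree of freedom of 11.1 to 105. The script was tested on simulated data. Alternatives used DESeq2 1.42.0, limma 3.58.1, other scalings, filters and groupings.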

Additional observations from a re-analysis of the deposited data

Results flagged for a closer look

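The difference between HF7 and HF6 had opposite directions in HDM and in cells. Fitted apart, a model chosen after seeing the data, the log2 fold change of HF7 over HF6 was -0.32 ± 0.28 in HDM (lower in 2 of 2 groups) and 0.78 ± 0.20 in cells (higher in 4 of 4 groups). The difference between these effects was -1.10 ± 0.34, with an unadjusted p of 0.00332 and an edgeR adjusted p of 0.9996 over 534 miRNAs, so it was not called. The cell effect alone had an edgeR adjusted p of 0.0855. For unfiltered HDM the HF7 and HF6 values lay within counting error of each other on the total count.

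Filtered minus unfiltered HDM had opposite signs in the HF numbers on the total count, at a log2 difference of -0.08 in HF7 and 0.19 in HF6. This difference was not tested, rests on 1 library for each value, and turns positive in HF7, at 0.25, in TMM-normalised CPM.

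The media libraries, which enter no comparison, held 1135 counts of miR-1246 in HDM media and 824 in regular media, above the limit of 3 counts that a count of 0 allows. HDM media stood 1.40-fold above regular media in CPM, with an exact 95% interval of 1.28 to 1.54 that covers counting error only, and there is no replicate of either.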

How the results depend on the processing

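Direction and call held in every alternative run for HDM against plate 1 and against plates 2 and 3. They also held for pellets and plate 1 against plates 2 and 3. None of these was run with plates grouped by HF number. HDM against pellets lost its call only there (-3.44 and -3.24). Pellets against plate 1 cells was not called on total counts (1.32), with at least 50 counts in at least 2 libraries (1.48), in limma-voom (1.22) or, chosen after seeing the data, without the 2 libraries under 1000000 counts (0.72). Without them unfiltered HDM stood at -2.51 and filtered HDM at -2.38 against pellets, and pellets at 3.74 against plates 2 and 3. Leaving out 1 library gave -3.84 to -2.65 for unfiltered and -3.61 to -2.40 for filtered HDM against pellets, 3.75 to 4.94 for pellets against plates 2 and 3, 0.73 to 1.90 for pellets against plate 1 and -0.04 to 0.73 for plate 3 against plate 2 cells, below 0 without the HF7 plate 3 library. In these fits the lone library of a group is assumed to vary like the other groups. The permutation difference was -0.99 to -0.23 without 1 library and turned to 0.19 without the pellets. The cause of these shifts was not tested.

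Within an HF number deviations from group means correlated over 0.1 in 6 of 15 pairs of groups (-0.211 to 0.384). A shared origin was not tested. With HF number as a replicate block the folds ran from -3.32 to 4.50 and no miR-1246 call changed. Calls for plate 3 against plate 2 cells went from 1 to 5. Of the 5 most like miRNAs, 4 were shared with Spearman's rho, 3 with the 12 replicated libraries and 4 with log2(TMM-normalised CPM + 10).

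Over all miRNAs, calls for unfiltered HDM against pellets numbered 165 (54 to 221 over the alternatives), for filtered HDM against pellets 209 (95 to 264) and for filtered against unfiltered HDM 3 (0 to 11). They numbered 153 (76 to 232) for HDM against plate 1, 63 higher and 63 lower (85 to 193 in all) for HDM against plates 2 and 3, 30 (5 to 107) for pellets against plate 1 and 219 (107 to 288) for pellets against plates 2 and 3. Plate 1 against plates 2 and 3 gave 139 (60 to 216) and plate 3 against plate 2 gave 1 (0 to 27). Total-count scaling moved the median log2 fold of all miRNAs in unfiltered HDM against pellets to 0.64, against 0.06, and the split of calls to 164 higher and 47 lower, against 77 and 88. The split became 176 higher and 71 lower, against 97 and 112, for filtered HDM against pellets (median 0.56 against 0.09), and 55 lower of 177, against 89 lower of 153, for HDM against plate 1 (0.25 against -0.07). It became 7 and 49, against 10 and 20, for pellets against plate 1 (-0.27 against -0.06), 75 and 195, against 108 and 111, for pellets against plates 2 and 3 (-0.49 against -0.09), and 66 and 102, against 78 and 61, for plate 1 against plates 2 and 3 (-0.21 against -0.02). miR-1246 kept its direction in these 6 comparisons.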
